A study of Mus musculus with 27 samples.

Results

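Radial glia are the stem cells of the embryonic brain, and intermediate progenitors are the dividing cells they give rise to before neurons are made. Here 10 genes that mark these cells were followed in the fetal mouse brain: Sox2, Pax6, Nes, Vim, Prom1, Id4, Tnc, Hopx, Eomes and Insm1. They were chosen by symbol from a table of 55416 genes, by a rule that uses no measured value though earlier results of these data were known when they were picked, and all 10 were measured and passed the filter on low counts in each comparison. RNA of whole fetal brains was sequenced from 3 mouse strains on days (d) 12, 15 and 17 of pregnancy, counted from the vaginal plug as d1, with 3 libraries in each of the 9 groups and 27 in all. C57BL/6J and AKR/J are inbred strains without a targeted allele. The third, B6.Cg-Cav1tm1Mls/J, here Cav1-null, carries a targeted deletion of caveolin-1, the main structural protein of caveolae, in every cell. It is congenic to C57BL/6J, made by repeated backcrossing to that strain. Mothers were about 8 weeks old, and the labels give every fetus as female. The labels name no treatment and do not say whether fetuses of a group shared a litter, so that the p-values measure the spread between these libraries.

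Radial glia line the ventricles, keep a long fibre that guides migrating neurons, and divide either to renew themselves or to make neurons and intermediate progenitors. As neurogenesis proceeds, the pool of dividing progenitors shrinks relative to the neurons, and late radial glia turn to making glial cells. Sox2 and Pax6 are transcription factors of radial glia, Nes and Vim are their intermediate filaments, Prom1 is a membrane protein of their apical protrusions, and Id4 is an inhibitor of basic helix-loop-helix factors. Tnc, an extracellular matrix protein, and Hopx, an atypical homeodomain protein, are known as markers of outer and late radial glia. Eomes, also called Tbr2, defines the intermediate progenitors of the cortex, and Insm1 is a zinc finger factor needed to form basal progenitors.

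Libraries held 26363697 to 39759702 reads on genes, with a median of 29700746. Levels are given as CPM, read counts scaled to a common library total, after scaling by the trimmed mean of M-values (TMM) over all 27 libraries. The TMM factors of AKR/J d12 replicates 1 and 3 were 0.679 and 0.688, which raises their CPM. Those of all other libraries were 0.897 to 1.12. Cav1 was at 0 to 0.509 CPM in the 9 Cav1-null libraries, at 9.24 to 34.2 CPM in AKR/J and at 10.4 to 39.9 CPM in C57BL/6J, as the strain labels require. Markers of the forebrain were not at like levels in all libraries of d12. Emx1, a transcription factor of the dorsal forebrain, was at 1.32 CPM in AKR/J d12 replicate 3, against 17.1 and 17.4 CPM in the other two libraries of that group, and Tbr1, a marker of cortical neurons, had no read there, against 49.9 and 40.3 CPM. Both were also low in C57BL/6J d12 replicate 3, with Tbr1 at 36.6 CPM against 123 and 157 CPM, and in Cav1-null d12 replicate 3, with Tbr1 at 7.70 CPM against 82.8 and 65.4 CPM. The AKR/J d12 libraries also held 33245 to 197901 CPM of 13 erythroid genes, against 570 to 18615 CPM in all other groups, and 60.8 to 2305 CPM of 14 genes of placenta and yolk sac, against 3.17 to 72 CPM elsewhere. In these 3 libraries at most 1 of the 14 placenta and yolk sac genes had no read. Leaving all these genes out of the fit changed no call for any of the 10 genes, and the strain comparisons of d12 are given with and without the third d12 libraries below. What sets these libraries apart was not tested.

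**Figure D1:**
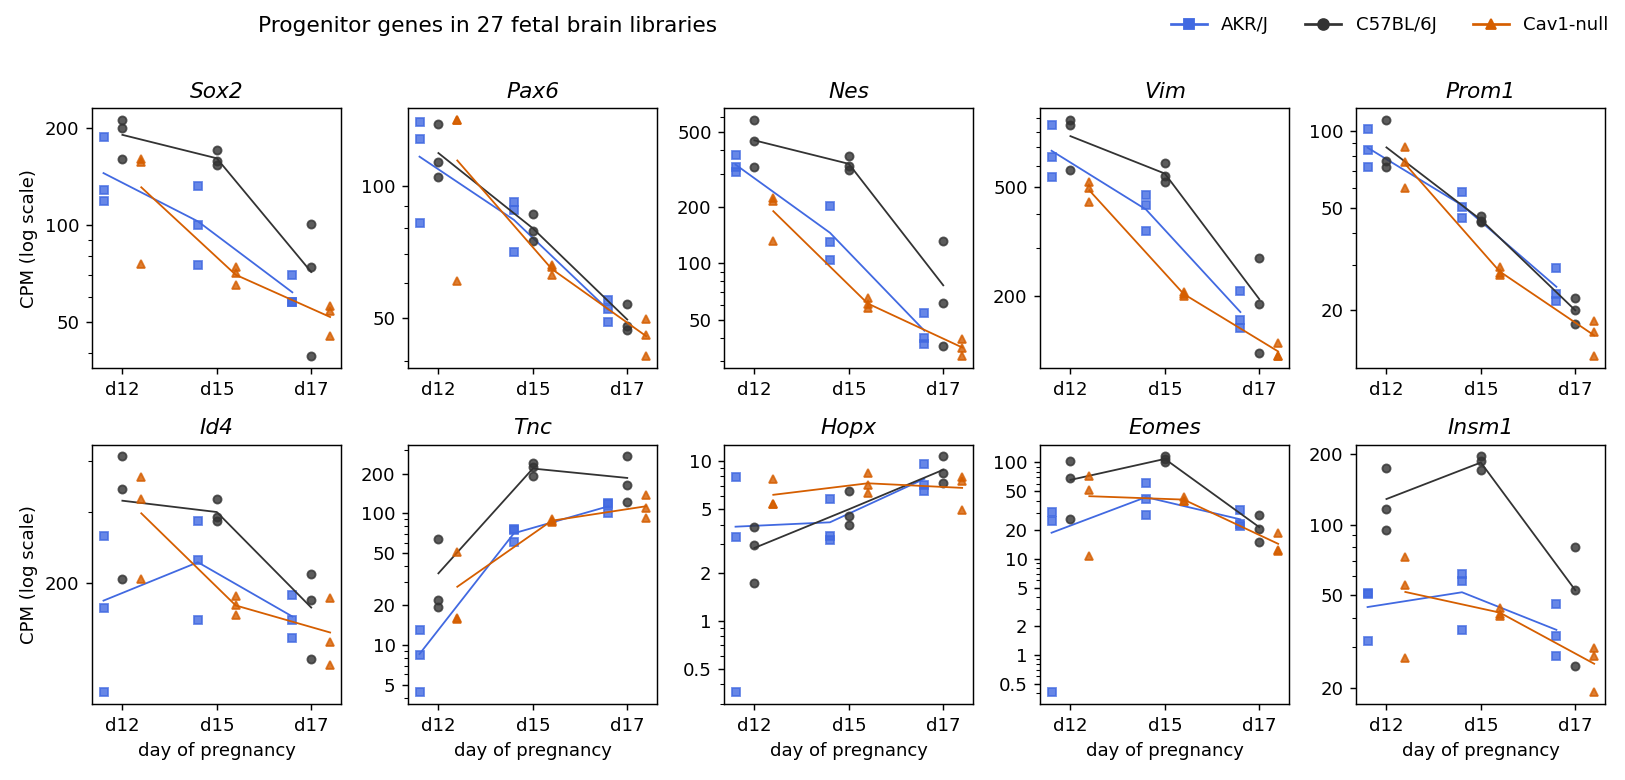
Level of each of the 10 genes in CPM (log scale) by day of pregnancy, with 1 point per library, 3 libraries per strain and day, and lines through the group means. Nes, Vim, Prom1, Sox2 and Pax6 were lower on d17 than on d12 in all 3 strains and Tnc was higher, and AKR/J d12 replicate 3 stands low at 0.406 CPM of Eomes and 0.356 CPM of Hopx.

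The promoters of 4 genes are shown because their RNAs moved strongly with day, Nes, Vim and Prom1 downward and Tnc upward. The sequences are 100 bases ending at a RefSeq transcription start, taken from a table of build GRCm38.p6 and placed by exact match on GRCm39. Capitals mark a CCAAT box (CCAAT, or ATTGG where it lies on the other strand) or a TATA box (TATAAA).
Vim, chr2:13579022-13579121, plus strand: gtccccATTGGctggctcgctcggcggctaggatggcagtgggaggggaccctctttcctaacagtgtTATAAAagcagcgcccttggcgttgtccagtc
Nes, chr3:87878300-87878399, plus strand: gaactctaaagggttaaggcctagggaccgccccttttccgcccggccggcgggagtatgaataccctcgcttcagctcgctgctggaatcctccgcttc
Prom1, chr5:44259079-44259178, minus strand: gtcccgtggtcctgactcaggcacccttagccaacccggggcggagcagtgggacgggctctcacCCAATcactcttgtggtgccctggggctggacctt
Tnc, chr4:63965253-63965352, minus strand: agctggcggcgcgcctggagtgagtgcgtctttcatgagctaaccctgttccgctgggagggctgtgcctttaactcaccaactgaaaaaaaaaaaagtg
Over the 250 bases before the start, 9 of the 10 genes had 13 windows in the table. On either strand a CCAAT box was in 8 of the 13 windows and in 33.8% of 32851 windows of all genes, and TATAAA was in 3 of the 13 and in 12.4% of all. Of these 3 windows 2 are overlapping windows of Tnc, which may hold the same TATAAA. The letters ACAAAG, of the SOX motif, were in 2 of the 13 and in 16.5% of all, and TGGGAA, of the RBPJ motif, in 4 of the 13 and in 21.6% of all. The E2F motif TTTCCCGC and the E-box CAGCTG were in 0 of the 13 windows, and in 0.895% and 13% of all.

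The transcription factors of radial glia fell between d12 and d17 in each strain. Sox2, which keeps neural stem cells in their undifferentiated state (chromosome 3, 34704554 to 34706610, plus strand, GRCm39), was at 199.6, 212 and 161 CPM in the C57BL/6J libraries of d12, at 154, 171 and 158 CPM on d15 and at 101, 39.2 and 74.4 CPM on d17. In AKR/J Sox2 was at 188, 119 and 129 CPM, then at 100.3, 75.3 and 133 CPM, and then at 70.1, 58.0 and 57.7 CPM. In Cav1-null brains Sox2 was at 161, 157 and 75.8 CPM, at 74.1, 71.2 and 65.2 CPM, and at 45.3, 56.1 and 54.3 CPM on the 3 days. Within each strain the libraries of d12 and d17 did not overlap, while d12 and d15 overlapped in AKR/J and C57BL/6J. From d12 to d17 Sox2 fell 2.34-fold in AKR/J (log2 change -1.23 ± 0.21 SE, adjusted p = 0.00186 by the quasi-likelihood test of edgeR, with p-values adjusted by Benjamini and Hochberg's method), 2.66-fold in C57BL/6J (-1.37 ± 0.34, adjusted p = 0.0216) and 2.53-fold in Cav1-null brains (-1.34 ± 0.25, adjusted p = 0.00251). Folds are ratios of mean CPM, n = 3 per group, and log2 changes are those of the edgeR fit. In C57BL/6J this call was lost without d12 replicate 1 (adjusted p = 0.0572) or d17 replicate 3 (adjusted p = 0.0824). An annotated long noncoding RNA on the opposite strand, Gm64654, covers 59.9% of the exon bases of Sox2, and since no source used here gives strand in the counting, reads of this pair cannot be told apart.

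Pax6, the paired box factor of dorsal progenitors and of the eye (chromosome 2, 105499234 to 105530952, plus strand), was at similar levels in the 3 strains on d12. It was at 138, 113 and 105 CPM in C57BL/6J on d12, at 79.0, 86.1 and 75.1 CPM on d15 and at 47.1, 53.9 and 48.0 CPM on d17. AKR/J gave 127, 139.5 and 82.4 CPM, then 91.8, 70.9 and 88.3 CPM, and then 52.6, 55 and 49.1 CPM. In Cav1-null brains Pax6 was at 141, 141 and 60.6 CPM on d12, the low value being that of the library with little Tbr1, at 65.4, 62.6 and 66.1 CPM on d15 and at 49.9, 41.0 and 45.7 CPM on d17. The groups of d15 and d17 did not overlap in any strain. Pax6 fell from d12 to d17 2.23-fold in AKR/J (adjusted p = 0.00262), 2.39-fold in C57BL/6J (adjusted p = 0.00271) and 2.51-fold in Cav1-null brains (adjusted p = 0.00425), and all 3 calls were kept in each of the 6 fits that left out a library. Exons of Elp4 on the opposite strand cover 21.1% of the exon bases of Pax6.

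Nes had the largest fall of the 10 genes from d12 to d17 in each strain. Nes, which encodes nestin, a filament protein of dividing neural progenitors (chromosome 3, 87878385 to 87887758, plus strand), was at 326, 578 and 449.8 CPM in C57BL/6J on d12, still at 329, 371 and 315 CPM on d15, and at 131, 36.0 and 61.0 CPM on d17. In AKR/J Nes was at 305, 376 and 324 CPM, then at 129, 104 and 202 CPM, and at 54.1, 39.9 and 37.0 CPM on d17. Cav1-null brains had 221, 215 and 132 CPM on d12, 65.1, 60.3 and 57.4 CPM on d15 and 32.0, 39.4 and 35.3 CPM on d17. The 3 days did not overlap in AKR/J or in Cav1-null brains, whereas d12 and d15 overlapped in C57BL/6J. From d12 to d17 Nes fell 7.67-fold in AKR/J (log2 change -2.94 ± 0.21 SE, adjusted p = 3.56e-05), 5.92-fold in C57BL/6J (-2.52 ± 0.48, adjusted p = 0.0084) and 5.32-fold in Cav1-null brains (-2.42 ± 0.19, adjusted p = 3.74e-05). From d12 to d15 it fell 2.31-fold in AKR/J (adjusted p = 0.0105) and 3.1-fold in Cav1-null brains (adjusted p = 0.000609), and in C57BL/6J the ratio of 1.33 did not pass the test (adjusted p = 0.128). Without AKR/J d15 replicate 1 the fall in AKR/J had an adjusted p of 0.0594, and with library sizes alone it did not pass. In fits without 1 library the log2 change from d12 to d17 ranged from -3.20 to -2.17 in C57BL/6J. The range in AKR/J was -3.11 to -2.82.

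Vim, which encodes vimentin, a filament protein shared by radial glia, connective tissue and vessels (chromosome 2, 13578738 to 13587639, plus strand), was at 579, 882 and 849 CPM in C57BL/6J on d12, at 614, 549.5 and 521 CPM on d15 and at 274, 123 and 186 CPM on d17. AKR/J had 648, 544 and 849.6 CPM, then 345, 432 and 467 CPM, and then 208, 163 and 152 CPM. The Cav1-null libraries of d15, at 207, 203 and 199 CPM, lay below each d15 library of the other strains, after 442, 498 and 522 CPM on d12, and d17 followed with 134, 120.0 and 120.4 CPM. Vim fell from d12 to d17 3.91-fold in AKR/J (adjusted p = 0.000377), 3.96-fold in C57BL/6J (adjusted p = 0.0058) and 3.9-fold in Cav1-null brains (adjusted p = 8.1e-06). Connective tissue also expresses Vim, and 10 genes of mesenchyme and cartilage summed to 455 to 5697 CPM in the C57BL/6J libraries of d15 and to 129 to 225 CPM in those of Cav1-null brains. Their part in the Vim levels was not tested. In these whole-tissue libraries, fewer cells of a type and less RNA per cell cannot be told apart.

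Prom1, which encodes prominin-1 of the apical membrane (chromosome 5, 44150962 to 44259395, minus strand), fell at each step in each strain. C57BL/6J gave 72, 76.4 and 110.2 CPM on d12, 44.0, 46.3 and 44.5 CPM on d15 and 22.1, 17.5 and 20.02 CPM on d17. In AKR/J Prom1 was at 72, 102 and 84.2 CPM, at 50.2, 45.7 and 57.7 CPM, and at 29.1, 21.6 and 23.0 CPM. The Cav1-null values were 75.9, 86.6 and 59.8 CPM, then 29.5, 27.9 and 27.3 CPM, and then 16.3, 18.1 and 13.2 CPM. No 2 consecutive days overlapped within a strain. Prom1 was 1 of 2 genes, with Tnc, that passed the test from d12 to d15 in all 3 strains, and from d15 to d17 it did so in all 3 as did Pax6, Nes and Vim. It fell from d12 to d17 3.5-fold in AKR/J (adjusted p = 0.000176), 4.33-fold in C57BL/6J (adjusted p = 0.00114) and 4.67-fold in Cav1-null brains (adjusted p = 2.79e-05).

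Id4, an inhibitor of differentiation factors (chromosome 13, 48414558 to 48419502, plus strand), changed less. It was at 343, 411 and 206 CPM in C57BL/6J on d12, at 286, 323 and 291 CPM on d15 and at 211, 130.2 and 182 CPM on d17. In AKR/J Id4 was at 262, 174 and 108 CPM, at 228, 163 and 286 CPM, and at 188, 147 and 163 CPM, with overlap between all days. In Cav1-null brains it was at 322, 366 and 206 CPM, at 177, 186 and 167 CPM, and at 126, 185 and 144 CPM. Only Cav1-null brains passed the test for Id4, with a fall from d12 to d15 of 1.69-fold (adjusted p = 0.0165) and from d12 to d17 of 1.97-fold (adjusted p = 0.00518), while the difference of the d12 to d15 changes between Cav1-null and C57BL/6J brains did not pass the interaction test (adjusted p = 0.366). The d12 to d15 call was kept in 2 of the 6 fits without 1 library, and the adjusted p reached 0.0815. In C57BL/6J Id4 fell 1.72-fold from d15 to d17 without overlap, but did not pass (adjusted p = 0.0575). It was called in 2 of the 6 fits without 1 library. The interaction test of Cav1-null and C57BL/6J brains from d15 to d17 did not pass either (adjusted p = 0.287).

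**Figure D2:**
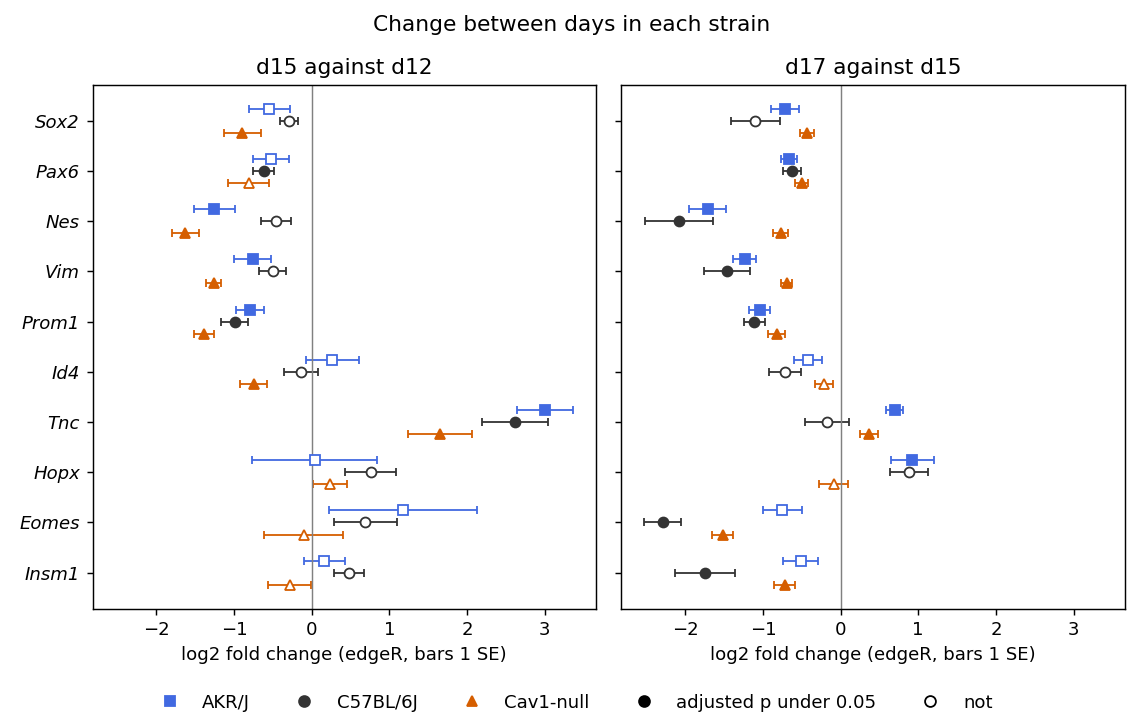
Log2 fold change of each gene from d12 to d15 (left) and from d15 to d17 (right) in the 3 strains, from edgeR fits of 3 against 3 libraries, with bars of 1 SE and filled symbols where the adjusted p was under 0.05. Tnc lies to the right of 0 in the left panel in all strains, while Nes, Vim, Prom1 and Pax6 lie to the left of 0 in both panels.

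Tnc moved the other way. It encodes tenascin-C (chromosome 4, 63878014 to 63965443, minus strand) and was at 12.9, 4.38 and 8.38 CPM in AKR/J on d12, at 60.9, 76.0 and 75 CPM on d15 and at 100.4, 120.4 and 119 CPM on d17. In C57BL/6J Tnc was at 21.9, 63.8 and 19.5 CPM, then at 240.1, 192 and 224 CPM, and then at 270.3, 165 and 122 CPM. Cav1-null brains had 15.9, 16.0 and 51.3 CPM, 90.3, 85.9 and 87.6 CPM, and 138, 92.2 and 109.5 CPM. Every library of d15 and d17 was above every library of d12 of its strain. From d12 to d15 Tnc rose 8.25-fold in AKR/J (log2 change 3.00 ± 0.36 SE, adjusted p = 0.00166), 6.24-fold in C57BL/6J (2.62 ± 0.43, adjusted p = 0.0202) and 3.17-fold in Cav1-null brains (1.65 ± 0.41, adjusted p = 0.0213). The call held in 6 of 6 fits without 1 library in AKR/J and in 2 of 6 in C57BL/6J, where the adjusted p reached 0.107. In Cav1-null brains it held in 1 of 6, where the adjusted p reached 0.0774. In C57BL/6J the log2 change without 1 library ranged from 2.34 to 3.33 from d12 to d15. From d12 to d17 it ranged from 2.05 to 3.20. Without Cav1-null d12 replicate 3, which held 51.3 CPM, the log2 change was 2.47 from d12 to d15 (adjusted p = 8.87e-11) in place of 1.65, and 2.83 from d12 to d17 (adjusted p = 1.11e-09) in place of 1.99. From d12 to d17 the rise of 13.2-fold, 5.3-fold and 4.08-fold in AKR/J, C57BL/6J and Cav1-null brains passed the test in all 6 such fits of each strain (adjusted p of all libraries 0.000115, 0.0108 and 0.00679). In C57BL/6J Tnc did not rise further from d15 to d17 (log2 change -0.17 ± 0.28, adjusted p = 0.694), and without d17 replicate 1, which held 270.3 CPM, it fell by 0.56 on the log2 scale (adjusted p = 0.035).

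Hopx (chromosome 5, 77234831 to 77263022, minus strand) had few reads, at most 10.7 CPM in any library. It was at 3.00, 3.85 and 1.71 CPM in C57BL/6J on d12, at 3.94, 4.54 and 6.46 CPM on d15 and at 7.32, 10.7 and 8.43 CPM on d17, with no overlap between days. It rose 3.09-fold from d12 to d17 in this strain (adjusted p = 0.00925), a call kept in 6 of 6 fits without 1 library. In AKR/J Hopx was at 7.95, 3.32 and 0.356 CPM on d12, at 3.39, 3.18 and 5.82 CPM on d15 and at 7.07, 6.51 and 9.62 CPM on d17. The rise of 1.87-fold from d15 to d17 in AKR/J (adjusted p = 0.044) was kept in 1 of 6 such fits, where the adjusted p reached 0.177. In Cav1-null brains Hopx stayed between 4.91 and 8.40 CPM on all days and the days overlapped, with an adjusted p of 0.736 from d12 to d17. Exons of the opposite-strand RNA Hopxos cover 38.9% of the exon bases of Hopx. Smaller shares are covered by opposite-strand exons in Vim (12.3%), Prom1 (11.2% and 5.0%), Eomes (10.3% and 4.6%), Id4 (10.3%) and Tnc (3.8%).

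Eomes and Insm1, the intermediate progenitor genes among the 10, had their highest group means in C57BL/6J on d15, while 15 other genes of these cells summed to 1215 to 1457 CPM in C57BL/6J on d12 and to 826 to 910.0 CPM on d15. Eomes (chromosome 9, 118307280 to 118315200, plus strand) was at 68.3, 103 and 25.7 CPM in C57BL/6J on d12, at 109, 115 and 102 CPM on d15 and at 28.4, 15.0 and 20.3 CPM on d17. In AKR/J Eomes was at 30.5, 24.8 and 0.406 CPM, at 60.6, 28.5 and 41.5 CPM, and at 32.0, 23.1 and 21.6 CPM. Cav1-null brains gave 71.5, 51.5 and 10.6 CPM, then 43.6, 39.6 and 40.1 CPM, and then 12.1, 12.3 and 18.3 CPM. The lowest d12 library of each strain was replicate 3, the one with the least Tbr1 in its group. From d15 to d17 Eomes fell 5.12-fold in C57BL/6J (log2 change -2.29 ± 0.24 SE, adjusted p = 0.00477) and 2.88-fold in Cav1-null brains (-1.52 ± 0.14, adjusted p = 6.23e-06), and both calls were kept in all 6 fits without 1 library. In AKR/J the ratio of 1.7 did not pass (adjusted p = 0.0699), but without AKR/J d15 replicate 2 the log2 change was -0.97 with an adjusted p of 0.00742. No strain passed the test for Eomes from d12 to d15. Without Cav1-null d12 replicate 3, however, Eomes fell from d12 to d15 in Cav1-null brains by 0.57 on the log2 scale (adjusted p = 0.00125). The fall from d12 to d17 passed in C57BL/6J (3.1-fold, adjusted p = 0.0396, kept in 2 of 6 fits) and in Cav1-null brains (3.13-fold, adjusted p = 0.0384, kept in 1 of 6), where the adjusted p without 1 library reached 0.131 and 0.151.

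Insm1 (chromosome 2, 146063841 to 146066940, plus strand) was at 117, 175 and 94.5 CPM in C57BL/6J on d12, at 187, 196 and 171 CPM on d15 and at 80.0, 24.8 and 52.4 CPM on d17. In AKR/J Insm1 was at 31.7, 51.0 and 50.4 CPM, at 57.4, 35.3 and 61.3 CPM, and at 45.6, 33.4 and 27.3 CPM, and all 3 days overlapped. In Cav1-null brains it was at 72.6, 55 and 26.9 CPM, at 44.1, 41.2 and 40.7 CPM, and at 19.1, 27.3 and 29.6 CPM. The C57BL/6J libraries of d12 and d15 lay above all 18 libraries of the other strains. From d15 to d17 Insm1 fell 3.52-fold in C57BL/6J (log2 change -1.75 ± 0.38, adjusted p = 0.0279) and 1.66-fold in Cav1-null brains (-0.72 ± 0.13, adjusted p = 0.00123). The C57BL/6J call was kept in 2 of 6 fits without 1 library and the adjusted p reached 0.128, and the Cav1-null call was kept in 6 of 6. Insm1 fell from d12 to d17 2.03-fold in Cav1-null brains (adjusted p = 0.0279), a call kept in 1 of 6 fits, with an adjusted p of up to 0.119.

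Counted by comparison, 4 of the 10 genes passed the test from d12 to d15 in AKR/J (1 higher, Tnc, and 3 lower, Nes, Vim and Prom1), where 28.9% of all genes tested did, 14.8% higher and 14.0% lower. In C57BL/6J 3 passed (Tnc higher, Pax6 and Prom1 lower), with 14.9% of all genes, 7.08% higher and 7.80% lower. In Cav1-null brains 6 passed (Tnc higher, and Sox2, Nes, Vim, Prom1 and Id4 lower), with 23.4% of all genes, 11.6% higher and 11.8% lower. When 1 library was left out these counts lay in AKR/J between 1 (AKR/J d15 replicate 1 absent) and 4, in C57BL/6J between 0 (any 1 of the d15 libraries or d12 replicate 1 absent) and 5 (d12 replicate 3 absent), and in Cav1-null brains between 3 and 9 (d12 replicate 3 absent). In the same fits the share of all genes called ranged from 12.4% to 43.5% in AKR/J, from 0% to 29.8% in C57BL/6J and from 11.2% to 35.9% in brains without Cav1. With library sizes alone in place of TMM, 1 of the 10 passed in AKR/J, and it was higher, where 4802 of 19935 genes did. None of the 3 falls in AKR/J then passed. Without Cav1-null d12 replicate 3 Pax6 (-1.11, adjusted p = 3.61e-08), Eomes and Insm1 (-0.59, adjusted p = 0.000538) were also lower on d15 in Cav1-null brains. The fall of Vim in AKR/J was called in 1 of the 6 fits (adjusted p of up to 0.222) and that of Prom1 in 4 (up to 0.0728), those of Pax6 and Prom1 in C57BL/6J in 2 (up to 0.147 and 0.124), and that of Sox2 in Cav1-null brains in 1 (up to 0.113).

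From d15 to d17, 7 of the 10 genes passed in AKR/J, where 22.1% of all genes did (11.6% higher, 10.4% lower), with Tnc and Hopx higher and Sox2, Pax6, Nes, Vim and Prom1 lower. In C57BL/6J 6 passed, all of them lower, namely Pax6, Eomes, Nes, Vim, Prom1 and Insm1, with 13.0% of all genes (7.46% higher, 5.58% lower). In Cav1-null brains 8 passed, with 27.3% of all genes (14.5% higher, 12.8% lower), Tnc higher and the others, all but Hopx and Id4, lower. The median log2 change of the 10 genes was -0.69 (AKR/J), -1.11 (C57BL/6J) and -0.60 (brains without Cav1), and that of all genes tested was -0.01, 0.03 and 0.00. Without 1 library the counts ranged from 5 to 9 in AKR/J, from 1 (without d17 replicate 3) to 10 (without d17 replicate 1) in C57BL/6J and from 7 to 9 in Cav1-null brains, with shares of all genes of 7.58% to 23.3%, 0.767% to 33.2% and 18.9% to 25.5%. With 1 model of all 27 libraries, 7 of the 10 were called in C57BL/6J, 4 in AKR/J and 1 in Cav1-null brains, where 19.6%, 10.2% and 3.56% of all genes were. In C57BL/6J the calls of Pax6, Nes, Vim and Insm1 were each kept in 2 of the 6 fits, and C57BL/6J d17 replicate 1 held 131 CPM of Nes against 36.0 and 61.0 CPM in the other two libraries of its group. In AKR/J the call of Sox2 was kept in 3 of the 6 (adjusted p of up to 0.119), and in Cav1-null brains that of Tnc in 1 of the 6 (up to 0.0955).

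From d12 to d17, 8 of the 10 genes passed in C57BL/6J, 6 in AKR/J and 9 in Cav1-null brains, where 26.2%, 45.8% and 44.0% of all genes tested did. Of all genes 14.5%, 23.1% and 20.8% were higher and 11.7%, 22.7% and 23.3% lower. Sox2, Pax6, Nes, Vim and Prom1 fell and Tnc rose in all 3 strains. Hopx passed as higher in C57BL/6J, Eomes as lower in C57BL/6J and Cav1-null brains, and Id4 and Insm1 as lower in Cav1-null brains. In C57BL/6J Insm1 fell 2.46-fold without overlap (adjusted p = 0.061) and Id4 1.84-fold (adjusted p = 0.073), and neither passed the quasi-likelihood test. By DESeq2 and by edgeR's likelihood ratio test all 10 passed in C57BL/6J, 8 of them lower, where 6475 and 6261 of 19762 genes did.

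The strains were then compared with C57BL/6J on each day. AKR/J and Cav1-null brains were set against the same C57BL/6J libraries, so that the 2 sets of differences share their controls. On d12, AKR/J was lower in Tnc (4.09-fold, log2 difference -1.88 ± 0.52 SE, adjusted p = 0.0305) and Insm1 (2.9-fold, -1.39 ± 0.28, adjusted p = 0.0127), 2 of the 10 genes where 28.6% of all genes passed, 14.5% higher and 14.1% lower. Same-numbered libraries of these 2 groups deviated together, with correlations of 0.18 to 0.44, and with the replicate number as a block 4 of the 10 genes passed, where 34% of all genes did. These were Insm1 (-1.38, adjusted p = 0.0025), Tnc (-1.75, adjusted p = 0.0319), Eomes (-2.39, adjusted p = 0.0219) and Id4 (-0.71, adjusted p = 0.0355). Without replicate 3 of both groups, an alternative chosen after seeing the data that called 15% of all genes, Eomes was lower in AKR/J by a log2 difference of -1.49 (adjusted p = 0.0272), Insm1 by -1.67 (adjusted p = 0.0288), and Tnc no longer passed (-2.16, adjusted p = 0.0537). Leaving out 1 library at a time gave 0 to 2 genes, with 0 without C57BL/6J d12 replicate 2. The share of all genes called then ranged from 0.122% to 39.9%. Tnc was called in 1 of these 6 fits, with an adjusted p of up to 0.122 and log2 differences of -2.32 to -1.18. Insm1 was called in 5 of the 6, with an adjusted p of up to 0.0622. AKR/J d12 was also the group with the erythroid and placental RNA described above.

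**Figure D3:**
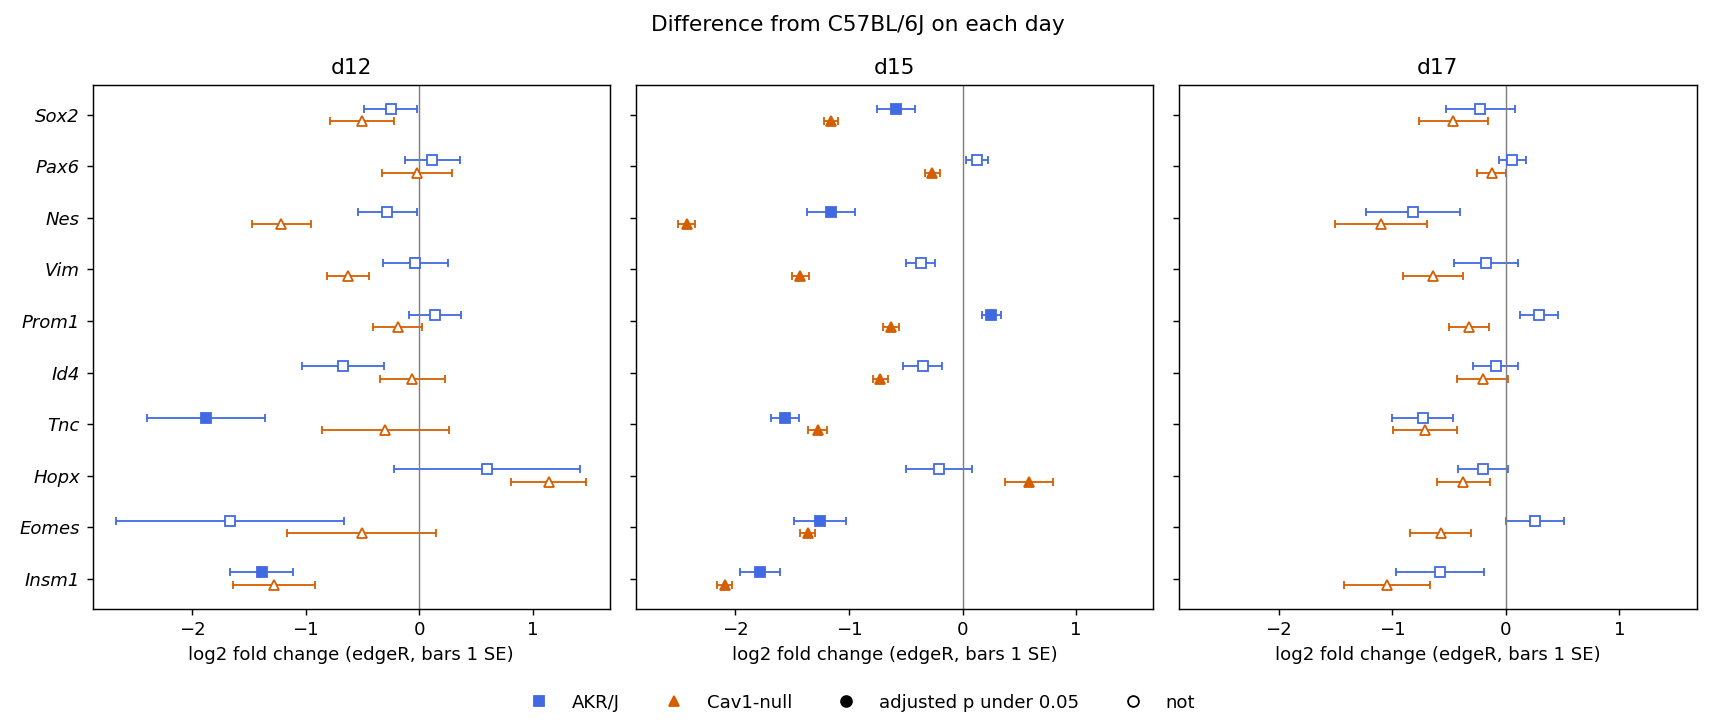
Log2 difference of AKR/J and Cav1-null brains from C57BL/6J on d12, d15 and d17, from edgeR fits of 3 against 3 libraries, with bars of 1 SE and filled symbols where the adjusted p was under 0.05. The filled symbols are concentrated on d15, where 6 genes passed for AKR/J and 10 for Cav1-null brains, and none of the symbols on d17 is filled.

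On d12 no gene of the whole table passed between Cav1-null and C57BL/6J brains by edgeR's quasi-likelihood test (0% of genes), while 4309 genes, 4 of the 10 among them, had an unadjusted p under 0.05. Nes was at 132 to 221 CPM in Cav1-null and at 326 to 578 CPM in C57BL/6J brains, without overlap (log2 difference -1.21 ± 0.26, adjusted p = 0.105), and Insm1 at 26.9 to 72.6 CPM against 94.5 to 175 CPM (-1.28 ± 0.36, adjusted p = 0.115). Hopx went the other way, at 5.34 to 7.72 CPM in Cav1-null and 1.71 to 3.85 CPM in C57BL/6J brains (1.14, adjusted p = 0.121). The 4309 genes are 22.1% of all genes tested. By DESeq2 4 of the 10 genes passed, Nes, Vim and Insm1 lower and Hopx higher, where 10.5% of all genes did. Without replicate 3 of both groups, the alternative chosen after seeing the data, 3 of the 10 passed, where 18% of all genes did. They were Nes (-0.99, adjusted p = 0.0224), Tnc (-1.35, adjusted p = 0.035) and Insm1 (-1.13, adjusted p = 0.0176). With all libraries the log2 difference of Tnc was -0.30 (adjusted p = 0.788), and without 1 library it ranged from -1.08 to 0.41.

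On d15, between Cav1-null and C57BL/6J all 10 genes passed, where 58.6% of all genes tested did (26.8% higher, 31.8% lower), with 9 lower in Cav1-null brains and Hopx higher. Nes was 5.55-fold lower (log2 difference -2.43 ± 0.08 SE, adjusted p = 1.5e-08), Insm1 4.39-fold lower (-2.09 ± 0.07, adjusted p = 1.51e-08), Vim 2.77-fold lower (-1.43 ± 0.07, adjusted p = 1.07e-07), Eomes 2.65-fold lower (-1.36 ± 0.07, adjusted p = 9.61e-08) and Tnc 2.49-fold lower (-1.28 ± 0.08, adjusted p = 5.86e-07). Sox2 was 2.3-fold lower, Id4 1.7-fold lower, Prom1 1.59-fold lower and Pax6 1.24-fold lower, and the libraries of these 9 genes did not overlap. Hopx was higher by 1.45-fold (adjusted p = 0.0348), with overlapping libraries and a call kept in 2 of 6 fits without 1 library, where the adjusted p reached 0.135. The other 9 were called in every such fit, but with 1 model of all 27 libraries 7 of the 10 were called, where 35.1% of all genes were, without Pax6, Eomes (adjusted p = 0.115) and Hopx, and with library sizes alone Pax6 was not called (adjusted p = 0.25). The median log2 difference of the 10 genes was -1.22 and that of all genes 0.03. Other lists also differed without overlap between the same libraries. The 9 genes of blood vessels summed to 204 to 210.5 CPM in Cav1-null and to 328 to 429 CPM in C57BL/6J brains, and 12 genes of brain regions to 519 to 541 CPM against 870.0 to 994 CPM. Genes of mesenchyme and cartilage summed to 129 to 225 CPM against 455 to 5697 CPM. The 13 erythroid genes were higher, at 2909.8 to 3617 CPM against 825 to 1068 CPM. Their part in the differences of the 10 genes was not tested.

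Between AKR/J and C57BL/6J on d15, 6 of the 10 genes passed, where 41.1% of all genes did, 18.8% higher and 22.3% lower. Insm1 was 3.6-fold lower in AKR/J (log2 difference -1.78 ± 0.18 SE, adjusted p = 0.000393), Tnc 3.1-fold lower (-1.56 ± 0.12, adjusted p = 0.000208), Eomes 2.5-fold lower (-1.26 ± 0.23, adjusted p = 0.00422) and Nes 2.33-fold lower (-1.16 ± 0.21, adjusted p = 0.00397). These 4 were called in every fit without 1 library. Sox2 was 1.57-fold lower (adjusted p = 0.0265) and Prom1 1.14-fold higher (adjusted p = 0.0382), calls kept in 2 and 1 of the 6 fits, with adjusted p of up to 0.114 and 0.18. Pax6 differed by a ratio of 1.05 (adjusted p = 0.318). AKR/J d15 replicate 2 held 183 CPM of 9 eye genes where the lowest library of its group held 12.1 CPM, and without it the log2 differences were -1.57 for Insm1, -1.62 for Tnc, -1.02 for Eomes and -0.96 for Nes, all 4 still called. In the AKR/J libraries of d15 blood vessel genes summed to 222 to 245 CPM and brain region genes to 431 to 613 CPM. Both were likewise below C57BL/6J without overlap. Erythroid genes were above, at 2012 to 3070.0 CPM, and mesenchyme and cartilage genes overlapped, at 189 to 1528 CPM. The part of these lists in the differences of the 10 genes was not tested.

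On d17 none of the 10 genes passed in either strain, where 0.742% of all genes passed for AKR/J (0.381% higher, 0.361% lower) and 0.0491% for Cav1-null brains (0.00491% higher, 0.0442% lower). By DESeq2 0 of the 10 passed in either strain, where 6.58% and 0.236% of all genes did. At an unadjusted p under 0.05 there were 1 and 4 of the 10, and 21.2% and 7.55% of all genes. The log2 difference of Nes was -0.82 ± 0.42 in AKR/J (adjusted p = 0.282) and -1.10 ± 0.40 in Cav1-null brains (adjusted p = 0.575), and all 10 differences of Cav1-null brains were below 0, from -1.10 to -0.12. The C57BL/6J d17 libraries spread widely, and without C57BL/6J d17 replicate 2, whose Nes level of 36.0 CPM was the lowest of the group, 3 of the 10 passed for AKR/J (Sox2, Nes and Insm1) and 5 for Cav1-null brains (Sox2, Eomes, Nes, Vim and Insm1), all lower than in C57BL/6J. In these fits 26.4% and 13.6% of all genes passed. Without C57BL/6J d17 replicate 1, at 131 CPM of Nes, 0 of the 10 passed in either strain, where 265 of 20978 and 16 of 21181 genes did. The median log2 difference of the 10 genes was then 0.05 in AKR/J and -0.31 in Cav1-null brains, in place of -0.19 and -0.52. Over all fits without 1 library the log2 difference of Nes was at its smallest -0.17 in AKR/J and -0.45 in Cav1-null brains.

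Whether the change between days itself differed from that of C57BL/6J was tested by the interaction of strain and day over 12 libraries. None of the 10 genes passed in any of the 4 interaction tests by edgeR's quasi-likelihood test, where 0.0711% (AKR/J, d12 to d15), 0.00468% (AKR/J, d15 to d17), 0.00472% (Cav1-null, d12 to d15) and 0.252% (Cav1-null, d15 to d17) of all genes did. In the same order 0.00474%, 0.00468%, 0% and 0.0327% of all genes were higher and 0.0664%, 0%, 0.00472% and 0.219% lower. At an unadjusted p under 0.05 there were 1, 3, 2 and 5 of the 10, and 16.3%, 7.57%, 15% and 21.9% of all genes. By DESeq2 0, 1, 2 and 1 of the 10 passed, and 4.83%, 0.211%, 2.44% and 6.7% of all genes. The closest were Hopx (log2 difference of changes -1.01 ± 0.33 SE, adjusted p = 0.123) and Nes (1.28 ± 0.46, adjusted p = 0.147) from d15 to d17 in Cav1-null brains. Without C57BL/6J d17 replicate 1, 8 of the 10 genes passed in that test, Sox2, Eomes, Nes, Vim, Hopx, Tnc, Id4 and Insm1, with Nes at 2.02 (adjusted p = 0.000164), and 3 passed for AKR/J, Eomes, Tnc and Insm1. Without that library 26.1% and 3.7% of all genes passed in these tests. From d12 to d15 in Cav1-null brains Nes (-1.40, adjusted p = 0.0179) and Vim (-0.88, adjusted p = 0.0268) passed without C57BL/6J d12 replicate 2, where 7.3% of all genes did. Without replicate 3 of the d12 groups, chosen after seeing the data, Sox2 (-0.80), Nes (-1.39) and Prom1 (-0.77) passed, where 0.445% of all genes did.

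Per kilobase of exon, which allows levels to be compared between genes, Vim was the most abundant of the 10 genes in 8 of the 9 groups, with 162 CPM per kb in C57BL/6J on d12. In Cav1-null brains on d17 it was second, at 26.3 CPM per kb, after Id4 at 32.9 CPM per kb. On d12 in C57BL/6J Sox2 (92.7 CPM per kb), Nes (70.3) and Id4 (69.6) followed, then Insm1 (41.5), Eomes (15.8), Prom1 (11.1), Pax6 (7.4), Tnc (4.4) and Hopx (1.29). On d17 in C57BL/6J Vim (40.9), Id4 (37.9), Sox2 (34.8) and Tnc (23.3) led, and Nes was at 11.9 CPM per kb. The exon lengths used are those of all annotated exons together, which for Pax6 is 16047 bases, which understates the level per kb of a gene whose main transcript is shorter.

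Other genes of the same cells were read from lists. From d12 to d15, 7.08% of all genes rose and 7.80% fell in C57BL/6J, 14.8% and 14.0% in AKR/J, and 11.6% and 11.8% in Cav1-null brains. The C57BL/6J counts of this step, for every list, come from a fit that called 6, 0 or 2 genes of the whole table when d15 replicate 1, 2 or 3 was left out. Of 20 further radial glia genes, 2 rose and 6 fell from d12 to d15 in AKR/J, 1 rose and 5 fell in C57BL/6J, and 2 rose and 10 fell in Cav1-null brains. From d15 to d17, 3, 1 and 4 rose and 12, 10 and 9 fell in the same order, where 11.6%, 7.46% and 14.5% of all genes rose and 10.4%, 5.58% and 12.8% fell. Hes5, an effector of Notch signalling, fell from d12 to d15, with log2 changes of -1.77 (C57BL/6J), -2.06 (AKR/J) and -1.44 (Cav1-null). Nr2e1, an orphan receptor of neural stem cells, fell from d15 to d17, with log2 changes of -2.05, -1.55 and -1.48. Slc1a3, the glial glutamate transporter, moved up as Tnc did in AKR/J, by a log2 change of 1.66 from d12 to d15, and in C57BL/6J Mfge8 rose by 1.42. On d15 in Cav1-null brains 18 of the 20 were lower than in C57BL/6J and 1 was higher, where 31.8% and 26.8% of all genes were, with log2 differences of -3.21 for Sox3, -2.26 for Notch1 and -2.17 for Sox1, and in AKR/J 13 were lower and 2 higher, where 22.3% and 18.8% of all genes were.

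Of 15 further intermediate progenitor genes, 1 rose and 6 fell in AKR/J, 0 rose and 8 fell in C57BL/6J, and 0 rose and 12 fell in Cav1-null brains from d12 to d15, where 14.0%, 7.80% and 11.8% of all genes fell. From d15 to d17, none rose and 13, 12 and 14 fell, where 10.4%, 5.58% and 12.8% of all genes did. Neurog2, a proneural factor, fell from d15 to d17, with log2 changes of -2.61 (C57BL/6J), -1.46 (AKR/J) and -2.19 (Cav1-null). For Neurog1, its relative, they were -4.15, -3.21 and -2.61. Eomes and Insm1 passed in C57BL/6J and Cav1-null brains in the same step. On d15, 14 of the 15 were lower in Cav1-null than in C57BL/6J brains, among them Dll3 (-1.70) and Neurog1 (-2.46), and 6 were lower in AKR/J, where 31.8% and 22.3% of all genes were lower.

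Most of 12 genes of dividing cells fell at each step. From d12 to d15, 11 of 12 fell in C57BL/6J, 10 in AKR/J and 12 in Cav1-null brains, where 7.80%, 14.0% and 11.8% of all genes fell. From d15 to d17 11, 12 and 12 did, where 5.58%, 10.4% and 12.8% of all genes fell, and none of the 12 rose in either step. Mki67, the proliferation marker, fell by 1.77 on the log2 scale from d15 to d17 in C57BL/6J. Between strains on d15, 7 of the 12 were lower and 2 higher in Cav1-null brains than in C57BL/6J, where 31.8% of all genes were lower, and their sum was 730.3 to 773 CPM against 965 to 1172 CPM. In AKR/J 6 were higher and 2 lower, where 18.8% and 22.3% of all genes were, and their sum of 1079 to 1125 CPM overlapped that of C57BL/6J. Of 12 genes of early neurons, 4, 9 and 6 rose in these strains from d12 to d15 and none fell, where 7.08%, 14.8% and 11.6% of all genes rose. On d15, 9 of the 12 were lower and 3 higher in Cav1-null brains than in C57BL/6J, and 8 were lower in AKR/J, where 31.8% and 22.3% of all genes were lower, with log2 differences of Tbr1 of -1.83 and -2.03. Without 1 library the median of the 10 genes from d12 to d15 ranged from -0.53 to -0.07 in AKR/J and from -0.37 to -0.09 in C57BL/6J. The lists were chosen with earlier results of these data known, and give a description rather than independent evidence.

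**Figure D4:**
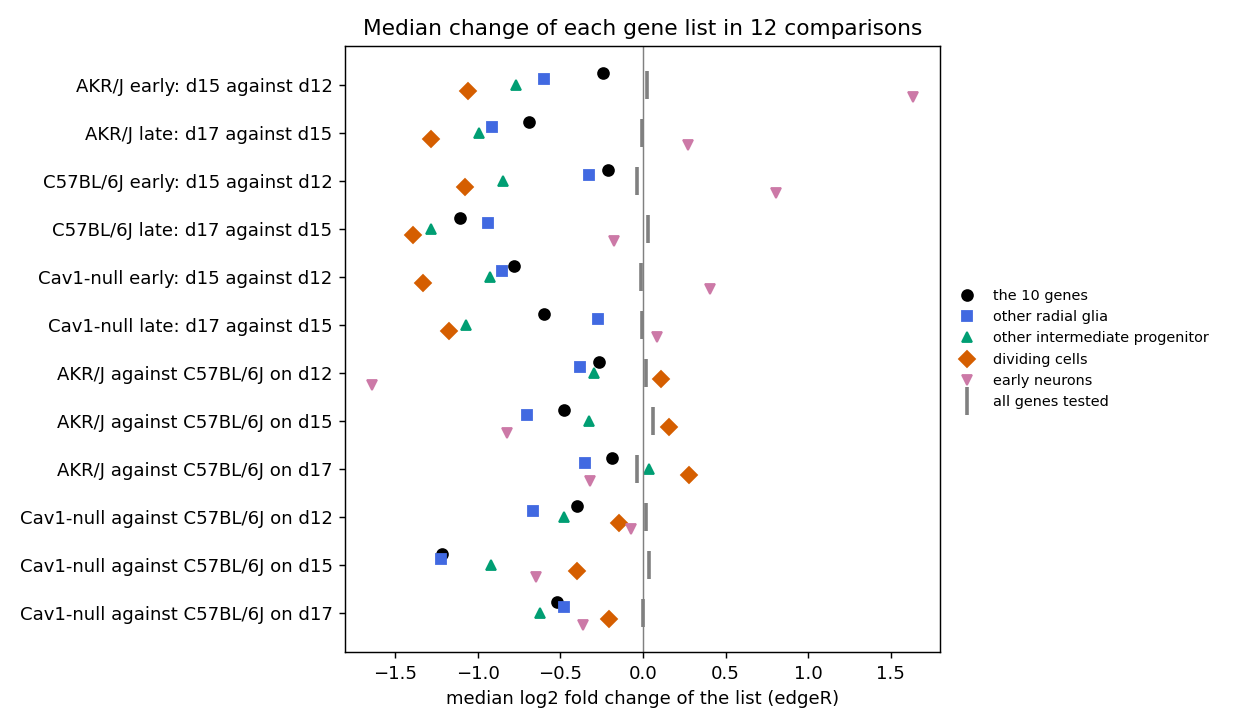
Median log2 fold change of the 10 genes and of 4 lists in 12 comparisons, 1 row per comparison and 1 symbol per list, with a grey bar for all genes tested. In the 6 comparisons of days the 10 genes lie left of 0, between -1.11 and -0.21, though with library sizes alone the AKR/J median from d12 to d15 is 0.23 in place of -0.24, and on d15 their median against C57BL/6J was -0.48 in AKR/J and -1.22 in Cav1-null brains.

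Among the 10 genes, Nes and Vim had the most similar levels across the 27 libraries (Pearson r of log2(CPM + 1) 0.97), followed by Sox2 and Nes (0.95) and Vim and Prom1 (0.93), and Tnc and Prom1 were the most opposed (-0.75). Over 10885 genes with a mean of at least 10 CPM, Nes was most like Crb2 (0.99), Mcm2 and Uhrf1, Prom1 most like Melk (0.99), Vim most like Mcm4 (0.98) and Insm1 most like Scrt2 (0.98). Eomes was most like Emx1 (0.94), Tbr1 and Fezf2, all 3 known as genes of the cortex. For Tnc the nearest was Cobl (0.96), for Sox2 Mbd3 (0.97), for Pax6 Mir9-3hg (0.96) and for Id4 Hs2st1 (0.93). For Hopx, whose likeness was weakest, they were 1110015O18Rik (0.86), Mt3 (0.81) and Ttr (0.79), a gene of the choroid plexus. On d12, d15 and d17, 6 choroid plexus genes summed to 98.5 to 306, 406 to 529 and 516 to 628 CPM in C57BL/6J. They summed to 24.1 to 192, 280 to 384 and 494 to 534 CPM in AKR/J. In Cav1-null brains the sums were 192 to 680, 365 to 470 and 308 to 361 CPM. Their part in the Hopx levels was not tested. These libraries share strain, day and depth, and the values are descriptions.

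Reads across splice junctions were a second readout of the same libraries. Of the 10 genes 6 had junctions in the table, Pax6 10, Prom1 9, Vim 4, Eomes 3, Tnc 3 and Nes 1. A group without any read was found for 4 junctions of Pax6, 4 of Prom1, 2 of Tnc, 1 of Eomes and 1 of Nes. The Nes junction had 0 reads in 6 of the 9 groups. Among them were C57BL/6J d12 and d15, where mean Nes was 451 and 338 CPM. It had 55 reads in Cav1-null d15, where mean Nes was 60.9 CPM, so that junction reads need not follow gene levels. What left these groups without reads was not tested. The Vim junction of chromosome 2 at 13583562 to 13584231 had 5802, 4549 and 1414 reads summed over the 3 C57BL/6J libraries of d12, d15 and d17, 3197, 3059 and 1195 in AKR/J, and 3899, 1344 and 904 in Cav1-null brains. The Tnc junction of chromosome 4 at 63927121 to 63931304 had 74, 407 and 233 reads in C57BL/6J, 4, 82 and 146 in AKR/J, and 36, 103 and 150 in Cav1-null brains. The Eomes junction of chromosome 9 at 118311363 to 118313341 had 166, 447 and 83 reads in C57BL/6J, 28, 112 and 55 in AKR/J, and 122, 73 and 41 in Cav1-null brains. These 3 are the junctions with the most reads of their genes, and the sums are not scaled for depth. The scaled mean gene level of Vim was lower on d15 than on d12 in each strain, and not all unscaled sums of its other 3 junctions were. In AKR/J these junctions had 2874, 3032 and 3120 reads on d15 against 2577, 2775 and 2844 on d12. In C57BL/6J 2 of them had 4634 and 4694 reads on d15 against 3508 and 3528 on d12. The TMM factors of AKR/J d12 replicates 1 and 3 were 0.679 and 0.688, and those of AKR/J d15 were 1.04 to 1.11. The unscaled AKR/J sums therefore cannot show whether these junctions departed from the gene level. Junctions that share a splice site, each with at least 5% of the reads of the site, were found at 6 sites of these genes, and none of the 6 had at least 10 reads in every library of d12 and d17, so that no share of splice forms was tested. At 2 further shared sites the rarer junction lay under 5%, with 82 reads against 2079 in Pax6 and 45 against 1114 in Prom1.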

How the data were processed

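Poly-A RNA of 27 fetal brains was measured, and the deposited table holds raw read counts per gene from the authors, not normalized. The submitters' processing notes list FastQC, cutadapt, fastp, STAR, bedtools, edgeR and GRCm39; the counting tool and its strand setting are not given in the sources used here. Counts were tested with edgeR 4.0.16 (R 4.3.3), by a quasi-likelihood test of the groups of each comparison after TMM scaling and edgeR's filter on low counts, with Benjamini-Hochberg adjustment over all genes tested. DESeq2 1.42.0 was an alternative. Likeness used log2(CPM + 1). The deposited splice junction counts were summed per group. Sequences were from RefSeq (GRCm38.p6), matched exactly to GRCm39. The 10 genes were always named, with at most 4 largest changes of each other list, the 3 most alike genes of each of the 10 and Cav1 as a check. The members and lists were chosen with earlier results of these data known. Same-numbered libraries deviated together (every correlation over 0.1) only between AKR/J and C57BL/6J on d12. Scripts were tested on simulated data. Depth was 26363697 to 39759702 reads, and precision was set by 3 libraries a group. Some genes of the lists are not reported here by name.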

Additional observations from a re-analysis of the deposited data

How the results depend on the processing

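Counts of the 10 genes called, when 1 library was left out, ranged in d12 to d15 from 1 to 4 (AKR/J), 0 to 5 (C57BL/6J) and 3 to 9 (Cav1-null), in d15 to d17 from 5 to 9, 1 to 10 and 7 to 9, and in d12 to d17 from 6 to 6, 6 to 9 and 7 to 9. Against C57BL/6J they ranged for AKR/J from 0 to 2 on d12, 4 to 7 on d15 and 0 to 3 on d17, and for Cav1-null from 0 to 1, 9 to 10 and 0 to 5. In the interaction tests they ranged from 0 to 0 and 0 to 3 for AKR/J and from 0 to 2 and 0 to 8 for Cav1-null brains, early and late. With library sizes alone AKR/J d12 to d15 gave 1 (24.1% of all genes), which was higher, so that no fall was called. AKR/J d12 to d17 then gave 5, 1 higher and 4 lower, where 7358 of 20030 genes were called. Without the filter, Cav1-null against C57BL/6J on d12 gave 2 (2.16%) and the late Cav1-null interaction 1 (2.61%). DESeq2 gave 4 and 1 for these (10.5% and 6.7%), 1 for the late AKR/J and 2 for the early Cav1-null interaction (0.211% and 2.44%), and edgeR's likelihood ratio test gave 3 for Cav1-null on d12, 1 and 2 for these interactions (6.52%, 0.342% and 0.944%). One model of all 27 libraries gave 4 in AKR/J and 1 in Cav1-null brains for d15 to d17 (10.2% and 3.56%), 4 and 3 for AKR/J against C57BL/6J on d12 and d15 (47% and 22.5%), and 2 and 7 for Cav1-null on d12 and d15 (7.44% and 35.1%). With the replicate block C57BL/6J d12 to d15 gave 0 (0% of all genes) and AKR/J against C57BL/6J on d12 gave 4 (34%). Without replicate 3 of the d12 groups, chosen after seeing the data, Cav1-null on d12 gave 3 (18%) and its early interaction 3 (0.445%). The cause was not tested, and no direction reversed at a called value. Library sizes alone moved the median of all genes by over 0.1 on the log2 scale in 9 of 19 comparisons, by -0.40 to 0.55, and the share of called genes that were higher from 51.4% to 74.7% in AKR/J d12 to d15. Expression of genes with an overlapping opposite-strand gene is uncertain, since strand in the counting is not given.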
